A study of Arabidopsis thaliana with 12 samples.

Results

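Leaf transcripts of Arabidopsis thaliana were compared between plants labelled with a lowered flavonol content and plants labelled with a raised one. The lowered side was the 3 arrays of OE1. The raised side was the mean of 2 groups, OE2 and fls1-3, with 3 arrays each, so 9 of the 12 arrays of the series entered the comparison. The 3 arrays of the wild type Col-0 contributed to the estimate of the spread and are given beside the other values. OE1 and OE2 are lines 1 and 2 that overexpress TaFLS, and fls1-3 is a mutant line that carries no TaFLS label. Rosette leaves were taken from plants grown in soil to an age of 6 weeks. They were kept at 22 °C and a humidity of 60%, with 16 h of light a day. RNA was extracted with Trizol and hybridised to Affymetrix ATH1 arrays, which read each transcript through a set of short probes.

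The flavonol labels do not follow the genotypes. Of the 2 lines that carry the same transgene, OE1 is labelled decreased and OE2 increased, and the mutant fls1-3 is labelled increased as well. No flavonol content was measured in the files, so the labels were taken as they stand. Each overexpression line is a single line, and the promoter of the transgene, the number of plants per sample and the kind of mutation in fls1-3 are not given in the sources used here. The titles call the samples biological replicates. They do not say whether the replicates came from separate plants, so the p-values measure the spread between these samples only. No probe set named FLS1 or TaFLS was found in the annotation used, so neither transcript was analysed here and the labels could not be checked against it.

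Flavonols are flavonoid pigments that absorb ultraviolet light, scavenge reactive oxygen and modulate the transport of auxin. Flavonol synthase, the FLS enzyme, makes them from dihydroflavonols, and the enzyme DFR draws on the same substrates for anthocyanins. In Arabidopsis leaves, flavonols are stored as glycosides, whose sugars are added by enzymes such as UGT78D1, UGT78D2 and UGT89C1.

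The arrays held 22810 values each, of which 64 were control probe sets and 22746 were tested. Values are log2 signals, and a difference of 1 on this scale is a 2-fold difference. The array medians lay between 7.10 and 7.55 over all 12 arrays, and the OE1 medians of 7.31 to 7.55 overlapped the 7.12 to 7.51 of the raised arrays. Arrays of the same group correlated at 0.907 to 0.935 over all probe sets. OE1 arrays correlated with fls1-3 arrays at 0.887 to 0.933 and with OE2 arrays at 0.92 to 0.93. RCA, the activase of the carbon-fixing enzyme Rubisco, had a mean log2 signal of at least 14.66 in every group, and LHCB4.1, a light-harvesting protein of photosystem II, had one of at least 14.44, so these leaf transcripts were among the bright ones. The markers fixed for roots, flowers, seeds and vascular tissue had no named probe set and were not analysed here.

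The OE1 arrays stood apart in the control transcripts. Each array carries probe sets for the 3' and the 5' end of GAPDH, actin and ubiquitin, and a larger 3' minus 5' difference means that less of the 5' end was read. For GAPDH, the difference was 1.36, 1.60 and 1.56 in OE1, 1.09, 0.76 and 0.95 in OE2, 0.77, 0.59 and 1.03 in fls1-3, and 0.92, 0.78 and 0.94 in Col-0 (log2). All 3 OE1 arrays were above the other 9. The mean difference between OE1 and the 6 raised arrays was 0.64 for GAPDH, 0.64 for actin and 0.63 for ubiquitin. The 3 OE1 arrays were above all 6 raised arrays for each transcript, and the exact two-sided permutation test gave p = 0.0238 each, adjusted p = 0.0238, the smallest that 3 against 6 arrays allow. This difference and the line OE1 cannot be told apart, since every OE1 array carries it.

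**Figure D1:**
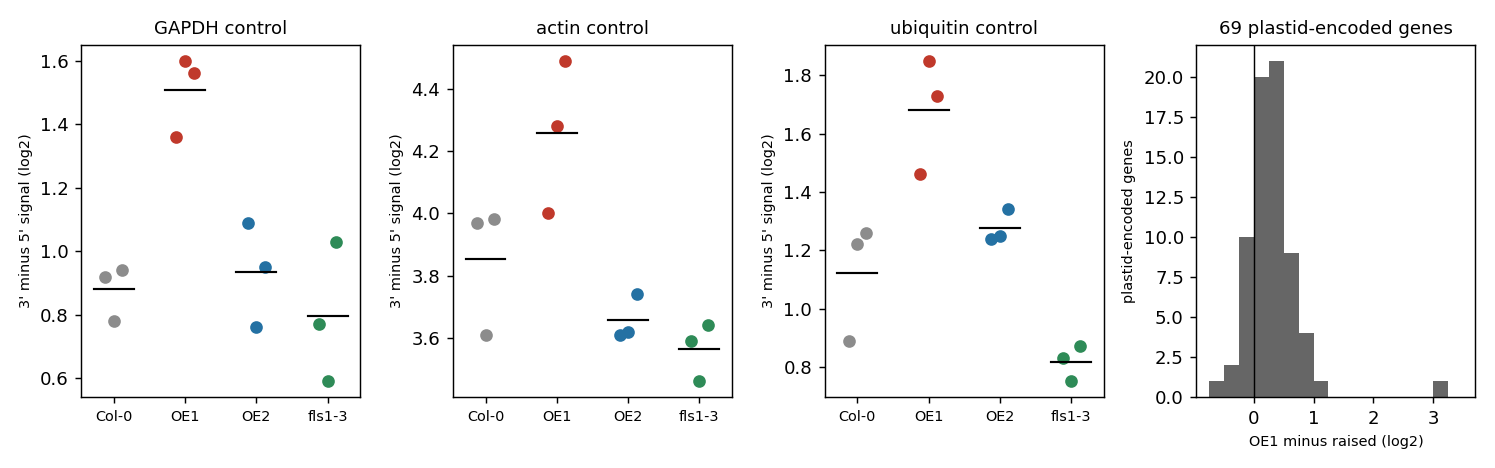
The first 3 panels plot the log2 3' minus 5' signal of the GAPDH, actin and ubiquitin control transcripts on each array (points) with group means (bars). The OE1 means of 1.51, 4.25 and 1.68 lie above the raised means of 0.87, 3.61 and 1.05. The last panel counts the 69 plastid-encoded genes by their log2 difference of OE1 minus the raised mean. It shows 56 above 0 (17 with the 3' minus 5' difference as a covariate), and psaC far to the right at 3.17.

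Against the mean of the raised groups, OE1 had higher transcripts of psaC, the iron-sulphur subunit of photosystem I, and ORA47, a transcription factor of jasmonate synthesis. It had lower transcripts of COR47, a dehydrin that accumulates in cold and drought, GTR1, a glucosinolate transporter, SWEET16, a sugar transporter of the vacuolar membrane, and NAI1, a transcription factor needed for endoplasmic reticulum bodies. In all, 81 probe sets passed an adjusted p of 0.05 (limma, Benjamini-Hochberg over all 22746), which is 0.356% of those tested. Of these, 21 were higher in OE1 (0.0923% of those tested) and 60 lower (0.264%). At an unadjusted p under 0.05 there were 3162, or 13.9%. Of the 81, 49 differed at least 2-fold, 11 higher and 38 lower. The median size was 1.11, and the range of differences ran from -2.85 to 3.46 (log2). Of the 81, 36 named exactly 1 gene, 2 named several and 43 had no name in the annotation used. Only 6 of the 81 were also called against OE2 alone (0.0264% of all probe sets were), and 61 against fls1-3 alone (0.554%). Both tests passed in 3 of the 81 and neither in 17. COR47, GTR1, SWEET16 and NAI1 did not pass against OE2 alone, and ORA47 did not pass against fls1-3 alone.

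The 81 calls came from bright and tight probe sets. Their median mean signal was 9.55, against 7.34 over all probe sets, and 77 of the 81 lay above that median. The median standard error of the difference was 0.17 for them and 0.32 over all. A small standard error helps a probe set to pass, and the fit ties the expected spread to the signal. Both traits are thus fixed in part by the test. In 79 of the 81 the OE1 arrays did not overlap the 6 raised arrays, all 60 of the lower ones and 19 of the higher ones, a count that the choice of called probe sets largely fixes. Over all probe sets, 9.6% did not overlap, 5.35% with OE1 above and 4.25% below. The gap between the groups was 0.09 to 1.94, with a median of 0.52 (log2).

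The number of calls changed with the model. With the 3' minus 5' difference of each array as a covariate, limma called 0 probe sets, with 821 at an unadjusted p under 0.05. In that fit 80 of the 81 kept their sign, and their median size was 0.99 against 1.11, while their median standard error was 0.48 against 0.17. Without the intensity trend in the variance prior it called 4, and leaving out the third OE1 array gave 9. Centring each array on its median gave 31 calls, 3 higher and 28 lower, of which 27 were among the 81.

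The transcript with the largest difference that met the naming rule was psaC. Its log2 signals were 9.05, 10.17 and 9.53 in OE1, 6.28, 6.87 and 7.44 in OE2, and 5.99, 5.69 and 6.23 in fls1-3. Col-0 gave 6.09, 6.99 and 7.11. OE1 stood alone above every other array, Col-0 included. The difference from the raised mean was 3.17 ± 0.33 (SE, n = 3 against 6), an 8.98-fold difference, with a limma adjusted p of 0.0032. It was 2.72 against OE2 and 3.61 against fls1-3. With the 3' minus 5' covariate the psaC difference was 1.72 ± 0.85 (limma adjusted p = 0.928).

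Among the 69 plastid-encoded genes with a named probe set, psaC was the 1 call (1 higher, 0 lower). Over all probe sets, 0.0923% were called higher and 0.264% lower. The plastid genome encodes subunits of the photosystems, of the ATP synthase and of the plastid ribosome. Of the 69, 56 had a positive difference and 13 a negative one, with a median of 0.27 against 0.077 over all probe sets (log2). In 16 of the 69 (23.2%) all OE1 arrays were above all raised arrays and in 0 they were all below. The plastid probe sets are bright, with a median mean signal of 11.67. Among all probe sets at or above the median signal, OE1 was above in 8.21% and below in 7.04%.

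Several other plastid members had all OE1 arrays above the raised arrays without passing. atpH, a subunit of the ATP synthase, had log2 signals of 11.33, 12.05 and 11.60 in OE1 and 10.06 to 10.79 in the raised arrays. Its difference was 1.14 ± 0.22 (limma adjusted p = 0.051). The ribosomal protein genes rpl16, rps15, rpl14 and rps2 differed by 0.67, 0.86, 0.67 and 0.65, with limma adjusted p of 0.080, 0.081, 0.109 and 0.110. The 11 mitochondrion-encoded genes had 0 calls, 7 positive differences and a median of 0.33, at a median signal of 5.89. Whether these values go with the larger 3' minus 5' difference of the OE1 arrays was not tested. With that difference as a covariate, the plastid median turned from 0.27 to -0.29, with 17 of the 69 positive, 52 negative, and limma calling 0 (0 at an unadjusted p under 0.05). The mitochondrial median turned from 0.33 to -0.33, with 5 of 11 positive. The median standard error in that fit was 0.53 for the plastid genes and 1.05 for the mitochondrial ones. Averaged over the control transcripts, the 3' minus 5' difference was 2.28 to 2.59 in OE1 and 1.60 to 2.06 on the other arrays. The fit can thus hardly separate it from the line OE1, and no direction can be read from the turned medians.

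ORA47 had separate ranges of signal in the 4 groups, but not every pair passed a test, and Col-0 was not tested. Its log2 signals were 9.85, 10.56 and 10.07 in OE1, 7.56, 6.56 and 6.76 in OE2, and 8.95, 8.96 and 9.19 in fls1-3. Col-0 gave 12.37, 12.36 and 11.21. The order was Col-0, OE1, fls1-3 and OE2 from high to low, with no overlap between neighbours. The difference of OE1 from the raised mean was 2.16 ± 0.28, a 4.48-fold difference (limma adjusted p = 0.0097). It was 3.20 against OE2 (limma adjusted p = 0.0024) and 1.13 against fls1-3 (limma adjusted p = 0.136). OE2 was 2.07 lower than fls1-3 (limma adjusted p = 0.0932). Col-0 was thus further from the raised groups than OE1 was.

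**Figure D2:**
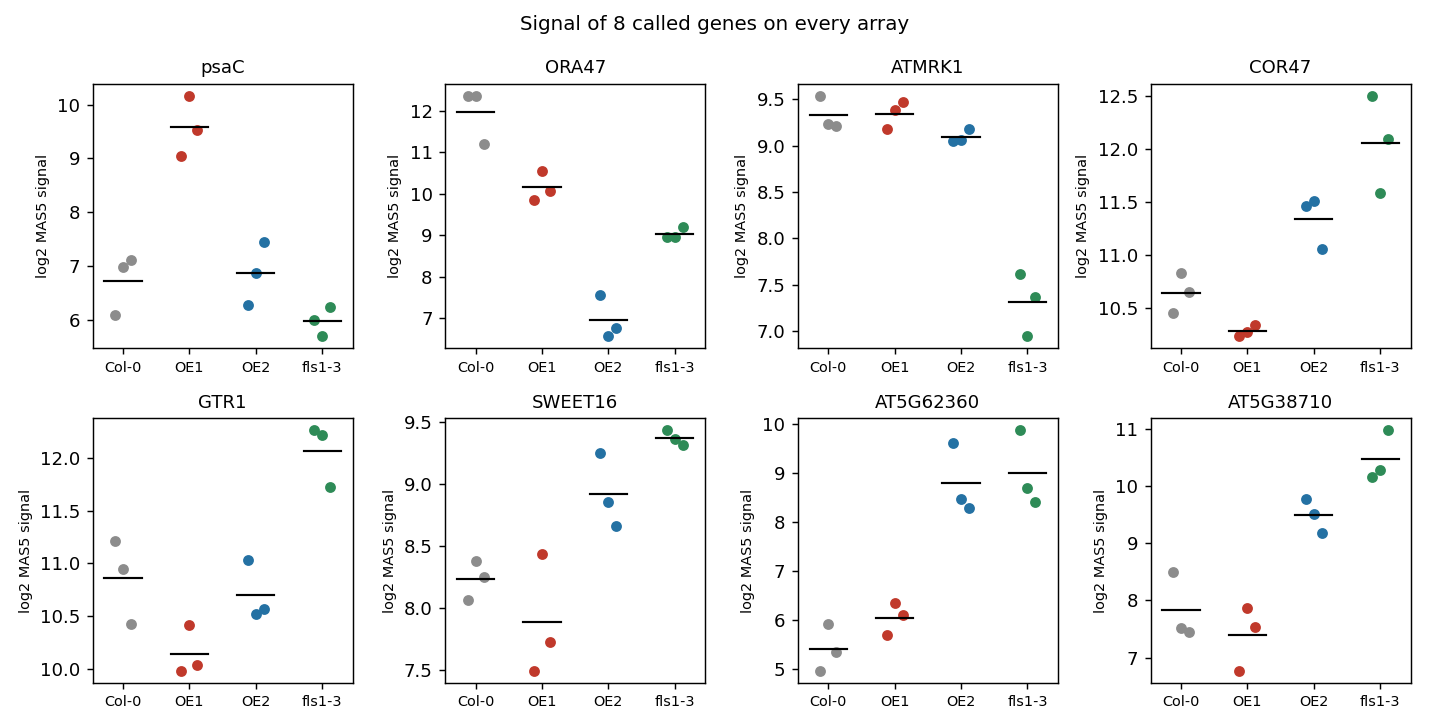
Log2 MAS5 signal of 8 called genes on each array (points) with group means (bars), with a separate vertical scale for each gene. OE1 is above OE2 and fls1-3 for psaC and ORA47 and below them for COR47, GTR1, SWEET16, AT5G62360 and AT5G38710. For ATMRK1 the lowest OE1 array, at 9.18, overlaps OE2, and fls1-3 lies near 7.31.

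The jasmonate list had 3 of its 23 genes measured, 1 of them called higher (0.0923% of all probe sets were), with a median of 1.05 that rests on those 3. PDF1.2, a defensin induced by jasmonate and ethylene, differed by 1.05 ± 1.09 and THI2.1, a thionin, by -0.66 ± 0.95, and neither passed. Among genes that respond to touch and stress within minutes, 6 of 29 were measured and 0 passed, with a median of 0.10, which was 1.14 against OE2 and -0.43 against fls1-3. WRKY53, a transcription factor of leaf senescence and defence, had log2 signals of 9.24, 10.47 and 10.53 in OE1, and 8.40 to 9.06 in the raised arrays. All OE1 arrays were above, at a difference of 1.37 ± 0.29 (limma adjusted p = 0.066). STZ, a zinc finger repressor of the stress response, differed by 1.07 ± 0.38 with overlapping arrays (limma adjusted p = 0.232). Its Col-0 mean of 12.12 was above the OE1 mean of 10.79, as it was for ORA47.

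ATMRK1, a protein kinase, was called higher in OE1, and it was low in fls1-3 alone. The log2 signals were 9.18, 9.38 and 9.47 in OE1, 9.05, 9.06 and 9.18 in OE2, and 7.61, 6.95 and 7.37 in fls1-3, with 9.54, 9.24 and 9.21 in Col-0. OE1, OE2 and Col-0 lay close together and fls1-3 lay below all of them. The difference from the raised mean was 1.14 ± 0.16 (limma adjusted p = 0.0134), but it was 0.24 against OE2 (limma adjusted p = 0.782) and 2.03 against fls1-3 (limma adjusted p = 0.00073).

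GH9B11, a glycosyl hydrolase of family 9, had the largest called difference, but its signal was dim and it lay outside the naming rule. Signals were 5.49, 4.60 and 5.33 in OE1, and 0.85 to 3.48 in the raised arrays. Values of this size lie well below the median of all probe sets, 7.34. The difference was 3.46 ± 0.65 (limma adjusted p = 0.048), and GH9B11 differed by 1.39 and 0.56 when a pseudocount of 16 or 64 was added to the linear signals. The other 9 one-gene calls that were higher in OE1 have no role in the tables used here and are named by locus. They were AT2G29300, AT5G02830, AT2G21860, AT4G24700, AT4G28080, AT2G30150, AT1G64500, AT2G43630 and AT3G02450, with differences from 0.67 for AT3G02450 to 1.27 for AT2G29300.

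The largest lower difference in OE1 was that of AT5G62360, with log2 signals of 5.69, 6.35 and 6.11 in OE1, 9.61, 8.48 and 8.29 in OE2, and 9.88, 8.71 and 8.41 in fls1-3. Col-0 gave 4.97, 5.93 and 5.35, close to OE1. The raised arrays were all at least 1.94 above the highest OE1 array, the widest gap among the 81. The difference was -2.85 ± 0.38, a 7.20-fold difference (limma adjusted p = 0.0107), and it was nearly the same against OE2 (-2.75) and against fls1-3 (-2.95).

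AT5G38710 had log2 signals of 6.77, 7.86 and 7.54 in OE1, 9.77, 9.51 and 9.17 in OE2, and 10.16, 10.29 and 10.97 in fls1-3. Col-0 gave 8.50, 7.52 and 7.45. The highest OE1 array was 1.31 below the lowest raised array, and Col-0 overlapped OE1. The difference was -2.59 ± 0.30 (limma adjusted p = 0.0045). AT2G34930 (-2.16), AT1G30250 (-1.80), AT1G66760 (-1.67), AT3G59350 (-1.49), AT5G54300 (-1.25) and AT1G52720 (-1.24) were also lower in OE1 and have no role in the tables used here. So were AT5G61660, AT3G54200, AT4G19200, AT3G55430, AT4G38810, AT5G04170, AT1G10090 and AT3G02880, by -0.69 for AT3G02880 to -1.12 for AT5G61660.

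COR47, the dehydrin, had tight and low values in OE1. It gave 10.24, 10.28 and 10.34 in OE1, 11.46, 11.51 and 11.06 in OE2, and 12.50, 11.58 and 12.09 in fls1-3 (log2 signals). Col-0 gave 10.45, 10.83 and 10.66, just above OE1 and below both raised groups. The difference was -1.42 ± 0.18, a 2.67-fold difference (limma adjusted p = 0.0091). It was -1.06 against OE2 (limma adjusted p = 0.147) and -1.77 against fls1-3 (limma adjusted p = 0.0042).

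The cold and dehydration list had 4 of its 12 genes measured. COR47 was called lower (0.264% of all probe sets were), and all 4 differences were negative (43.1% of all probe sets were), with a median of -0.84 against 0.077 over all probe sets. LTI30, another dehydrin, differed by -2.23 ± 0.60 (limma adjusted p = 0.122), with all OE1 arrays below all raised arrays. COR15A and COR15B, which protect chloroplast membranes in frost, differed by -0.26 and -0.18 and did not pass.

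GTR1 moves glucosinolates, the sulphur-rich defence compounds of the cabbage family, across membranes together with its homologue GTR2. The GTR1 log2 signals were 9.98, 10.41 and 10.03 in OE1, 11.03, 10.52 and 10.56 in OE2, and 12.26, 12.21 and 11.73 in fls1-3. Col-0 gave 11.21, 10.95 and 10.43, which overlapped OE2. The difference was -1.24 ± 0.20 (limma adjusted p = 0.0236). It was -0.56 against OE2 (limma adjusted p = 0.514) and -1.92 against fls1-3 (limma adjusted p = 0.0042). GTR2 differed by -0.83 ± 0.25 (limma adjusted p = 0.161), with all OE1 arrays below. BCAT4, an enzyme of the methionine-derived glucosinolates, differed by -0.24 ± 0.31. The glucosinolate list had 3 of its 20 genes measured, 1 called lower (0.264% of all probe sets were), with a median of -0.83.

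SWEET16 had log2 signals of 7.50, 8.44 and 7.73 in OE1, 9.25, 8.86 and 8.66 in OE2, and 9.43, 9.36 and 9.32 in fls1-3. Col-0 lay between, at 8.07, 8.38 and 8.25, and overlapped OE1. The difference was -1.26 ± 0.20 (limma adjusted p = 0.0241). Against OE2 alone it was -1.03 (limma adjusted p = 0.206), and against fls1-3 alone -1.48 (limma adjusted p = 0.0192). Of 14 measured SWEET sugar transporters, SWEET16 was the 1 call (0.356% of all probe sets were called), and the median of the 14 was -0.28. Its close homologue SWEET17 differed by -0.29 ± 0.17 (limma adjusted p = 0.486).

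Other one-gene calls with a known role were also lower in OE1. NAI1 had log2 signals of 7.43, 7.08 and 7.31 in OE1 and 7.97 to 9.19 in the raised arrays, a difference of -1.33 ± 0.25 (limma adjusted p = 0.0475). Against OE2 alone the NAI1 difference was -1.03 (limma adjusted p = 0.279), and against fls1-3 alone -1.63 (limma adjusted p = 0.0293). With the 3' minus 5' covariate the NAI1 difference was -0.27 ± 0.63, and its call was also lost with median centring. AKINBETA1, a regulatory subunit of the SnRK1 energy-sensing kinase, differed by -0.77 ± 0.12 (limma adjusted p = 0.0236), and its OE1 arrays at 10.04, 10.28 and 10.03 lay beside the Col-0 arrays at 10.10, 10.25 and 9.98. IRX15-L, which takes part in xylan deposition in secondary walls, differed by -1.16 ± 0.20, and its homologue IRX15, at a mean OE1 signal of 2.36, by -1.29 ± 0.70 without passing. BGLU16, a member of the beta-glucosidase family, differed by -0.79 ± 0.14, and 0 of the other 19 measured members of that family passed. That family had 12 positive and 8 negative differences, with a median of 0.12. Over all probe sets, 0.264% were called lower. These 3 families were looked up after the called genes had been seen. In whole leaves, fewer cells of a type and less RNA per cell cannot be told apart.

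**Figure D3:**
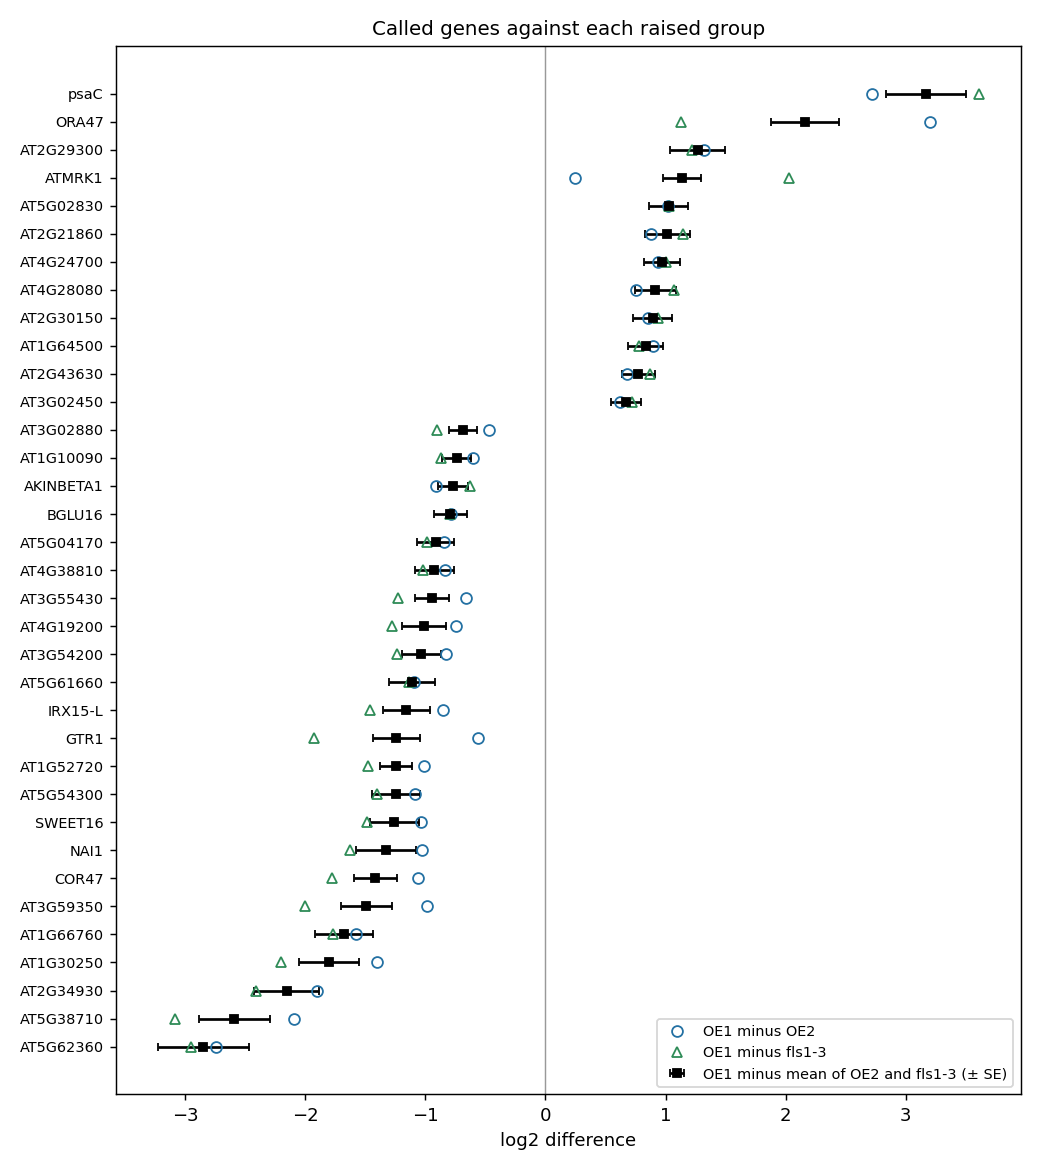
Log2 difference of OE1 from OE2 (circles), from fls1-3 (triangles) and from their mean (squares with SE bars) for the 35 one-gene calls other than GH9B11. ATMRK1, ORA47 and GTR1 have the circle and the triangle far apart, and AT5G02830, BGLU16 and AT5G61660 have them together.

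Of 20 genes of flavonol synthesis and early flavonoid steps, 5 were measured, 0 passed, and the median was 0.19. Of the 5, 4 are glycosyltransferases, and most enzymes that build the flavonoid skeleton, FLS1 included, had no named probe set and were not analysed here. UGT78D2, the flavonoid 3-O-glucosyltransferase, had log2 signals of 9.22, 8.85 and 9.42 in OE1, 8.73, 8.60 and 9.27 in OE2, and 8.55, 8.36 and 8.48 in fls1-3. The groups overlapped, and the difference was 0.50 ± 0.19 (limma adjusted p = 0.275). UGT78D1 and UGT89C1, the rhamnosyltransferases of flavonols, differed by 0.19 ± 0.38 and -0.13 ± 0.25. CHIL, a chalcone isomerase-like protein, differed by 0.09 ± 0.60, and UGT78D3, the arabinosyltransferase, by 0.88 ± 0.82 at a dim mean signal of 2.85 in OE1.

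DFR varied widely within groups. It had log2 signals of 9.31, 4.13 and 9.57 in OE1, 8.42, 7.54 and 9.37 in OE2, 8.39, 5.78 and 4.98 in fls1-3, and 4.61, 6.86 and 8.24 in Col-0. The second OE1 array was over 5 units below the other 2. The difference was 0.26 ± 1.19 (limma adjusted p = 0.948), a span that does not allow a direction to be read. The anthocyanin list had 5 of 20 genes measured, 0 called, and a median of 0.26 (-0.16 against OE2 and 1.28 against fls1-3), and UGT79B1, which adds xylose to anthocyanins, had an SD of 2.85 among the OE1 arrays. Of the general phenylpropanoid list 2 of 16 were measured and 0 passed. 4CL8, which the annotation names among the 4-coumarate:CoA ligases, differed by -0.94 ± 0.30 with OE1 below (limma adjusted p = 0.179).

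Across 20 lists, 46 of 293 different genes were measured and 3 passed, ORA47, COR47 and GTR1. This is 6.52% of those measured, against 0.356% of all probe sets. All the lists were chosen with earlier results of these data known, and those results had singled out ORA47 and COR47. The higher share is therefore no independent result. The auxin list had 4 of 22 genes measured, 0 called, and a median of -0.48, the largest being GH3.3, an auxin-conjugating enzyme, at -1.16 ± 0.67. The guard cell list had 5 of 15 measured, 0 called, 3 positive and 2 negative differences, and a median of 0.50, which was -0.43 against OE2 and 1.5 against fls1-3. STOMAGEN, a peptide that promotes stomata, differed by 1.13 ± 0.46 (limma adjusted p = 0.294). The guard cell marker GC1 differed by -0.94 ± 0.37 (limma adjusted p = 0.287) and FAMA, a transcription factor of guard cell identity, by -0.34 ± 0.34. The carbon starvation and senescence list had 5 of 18 measured, 0 called, and a median of -0.57.

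IVD, an enzyme of leucine breakdown that rises in carbon starvation, had all OE1 arrays below the raised arrays at -0.67 ± 0.20 (limma adjusted p = 0.158). QQS, a gene that regulates starch content, had log2 signals of 7.86, 8.26 and 8.42 in OE1, 6.57, 7.54 and 6.93 in OE2, and 6.52, 7.97 and 7.46 in fls1-3. Col-0 was far above all of them at 10.85, 11.04 and 10.79. The OE1 difference of 1.02 ± 0.29 from the raised mean did not pass (limma adjusted p = 0.147).

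The raised side is not uniform, so each of its groups was also compared with OE1 alone. Against OE2, 6 probe sets were called (0.0264%), 3 higher (0.0132%) and 3 lower (0.0132%), with 1918 (8.43%) at an unadjusted p under 0.05. Against fls1-3, 126 were called (0.554%), 24 higher (0.106%) and 102 lower (0.448%), with 3561 (15.7%) at an unadjusted p under 0.05. Both comparisons share the OE1 arrays, and whether the counts differ was not tested. OE2 against fls1-3 gave 5 calls (0.022%), 2 higher (0.00879%) and 3 lower (0.0132%) in OE2, with 1238 (5.44%) at an unadjusted p under 0.05.

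Among the 81 calls, OE2 and fls1-3 differed by less than 0.5 in 54 and by at least 1 in 10 (log2). Of those 10, 5 named 1 gene. They were ORA47, ATMRK1, GTR1, AT3G59350 and GH9B11. The median difference between OE2 and fls1-3, without sign, was 0.34 for the 81 and 0.29 over all probe sets. At an unadjusted p under 0.05 they differed in 32 of the 81 (39.5%), against 5.44% over all probe sets, and the called probe sets have smaller standard errors. The lower calls were further from fls1-3 than from OE2 in 47 of 60, and the higher ones in 13 of 21. This split was not counted over all probe sets, nor were the limits of 0.5 and 1 above. Over all probe sets, 15.7% had a limma unadjusted p under 0.05 for OE1 against fls1-3 and 8.43% for OE1 against OE2.

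The place of Col-0 shows which side of each called difference was nearer to the wild type, which the rule did not use. The Col-0 mean was nearer to OE1 than to the raised mean in 61 of the 81 (75.3%), against 42.5% of all probe sets. It was nearer in 17 of the 21 higher calls and 44 of the 60 lower ones. In 35 (43.2%) it lay beyond OE1, against 28.6% of all probe sets, and in 44 (54.3%) between OE1 and the raised mean, against 31.5%. In 2 it lay beyond the raised mean, against 39.9% of all probe sets. Over all probe sets the difference between OE1 and the raised mean is mostly small, so the places are not measured against the same span.

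Col-0 was within 0.5 of OE1 in 44 of the 81 and within 0.5 of the raised mean in 19. How many of all probe sets lay this close was not counted, so these counts have no baseline. Named examples with Col-0 beside OE1 were AT5G02830 (Col-0 9.43, OE1 9.44, raised mean 8.41), AKINBETA1 (10.11, 10.11 and 10.89) and COR47 (10.65, 10.29 and 11.70). The exceptions included psaC, where Col-0 was nearer to the raised groups (6.73, 9.58 and 6.42), and AT5G61660 (10.03, 9.06 and 10.18). In the 3' minus 5' difference, the Col-0 arrays lay within the range of the raised arrays for GAPDH and ubiquitin (0.89 to 1.26 for ubiquitin, against 0.75 to 1.34). For actin they gave 3.97, 3.61 and 3.98 against 3.46 to 3.74 in the raised arrays, so 2 of the 3 were above the raised range and near the lower end of OE1.

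**Figure D4:**
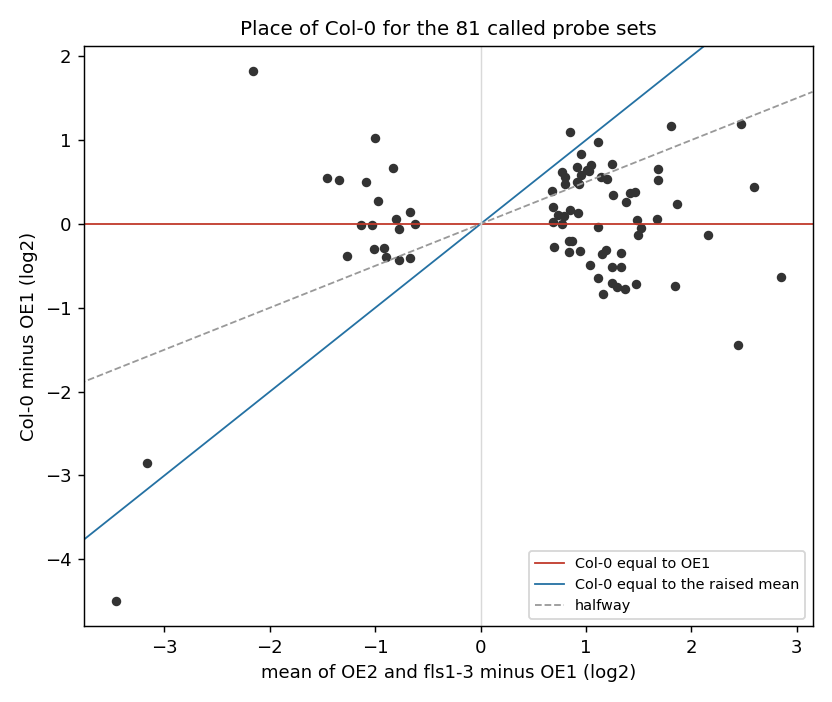
Each point is 1 of the 81 called probe sets. The horizontal axis is the mean of OE2 and fls1-3 minus OE1 and the vertical axis is Col-0 minus OE1 (both log2). On the red line Col-0 equals OE1, on the blue line it equals the raised mean, and 61 of the 81 points lie on the OE1 side of the dashed halfway line.

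Unnamed probe sets made up 43 of the 81 calls. The smallest adjusted p of all, chosen after the values were seen, belonged to an unnamed probe set with a difference of -1.84 (log2, limma adjusted p = 0.00058). Among the 36 one-gene calls, psaC, AT5G38710 and AT1G52720 passed in all 12 fits that each dropped a different array, and ORA47, AT5G62360, AT2G34930 and COR47 passed in 10 or 11 of 12. A further 17 passed in fewer than 6, among them GTR1 and BGLU16 in 5, NAI1 and IRX15-L in 4 and GH9B11 in 3. Dropping a Col-0 array changes only the estimate of the spread. AT5G38710 and AT1G52720 did not pass without the intensity trend. With the 3' minus 5' covariate, psaC, AT5G38710 and AT1G52720 did not pass either. AT1G52720 had log2 signals of 10.31, 10.05 and 10.17 in OE1 and 10.98 to 11.72 in the raised arrays, with Col-0 at 9.26, 9.45 and 9.72, lower than OE1. Its difference was -1.24 ± 0.14 (limma adjusted p = 0.0040).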

How the data were processed

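Per the submitters' processing notes the arrays were processed with MAS5. The deposited values are log2 signals; their 2% trimmed mean is 500.05 on the linear scale on every array, so they were used without further scaling. Background, mask and software version are not given in the sources used here. Probe sets were named from the platform annotation of 2016 and updated through a RefSeq gene table by gene ID: 13513 name 1 gene (13436 matched), 503 several and 8730 none.

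limma 3.58.1 (R 4.3.3) was fitted to all 12 arrays with 1 coefficient per group, a variance prior with an intensity trend, and Benjamini-Hochberg adjustment over 22746 probe sets; 0.05 was the threshold. The number of arrays limits the precision. Genes named are the 12 largest differences per direction that passed, named 1 gene, were at or above the median signal and did not overlap, plus called list members and psaC, ORA47, QQS, ATMRK1, COR47, UGT78D2 and DFR. Other one-gene calls were named after their values were seen. For OE2 against fls1-3 the 5 smallest p naming 1 gene were tracked. Groups were taken from the labels. The comparison, lists and tests were chosen with earlier results of these data known. The fit was tested on simulated data with independent noise for each probe set. They held no shift shared by the OE1 arrays, such as the 3' minus 5' difference, so they cannot show how such a shift acts on the calls.

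Alternatives were quantile normalization, median centring, pseudocounts, a signal filter, dropping cross-hybridising probe sets, other samples in the fit, variance settings, array weights, a replicate block, covariates and leaving out each array.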

Additional observations from a re-analysis of the deposited data

Results flagged for a closer look

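OE2 and fls1-3 are both labelled as raised, and they differed by the limma test of the difference itself in 2 of the genes followed. Over all probe sets, 5 of 22746 passed (0.022%). AT1G75230 was followed because its p was among the smallest of this same comparison, and earlier results of these data had singled out ATMRK1. That these 2 passed is therefore no independent result. ATMRK1 was higher in OE2 than in fls1-3 by 1.79 ± 0.18 (log2, limma adjusted p = 0.0033), and OE1 and Col-0 lay with OE2. With the 2 groups alone in the fit the adjusted p was 0.121. AT1G75230 was lower in OE2 than in fls1-3 by -1.61 ± 0.22 (limma adjusted p = 0.0399), with signals of 8.92, 8.56 and 9.12 in OE2, 10.58, 10.18 and 10.68 in fls1-3 and 9.76, 10.35 and 9.75 in OE1. Its call was lost, among other settings, with median centring (limma adjusted p = 0.11) and without the second OE2 array (limma adjusted p = 0.28).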

How the results depend on the processing

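The call count of OE1 against the raised mean (81) became 150 with quantile normalization, 31 with median centring (3 higher, 28 lower), 195 with a filter at the 40th percentile, 346 with only the compared groups, 4 without the intensity trend and 2221 with array weights (1060 higher, 1161 lower). It became 732 with the array median as a covariate (319 higher, 413 lower), chosen after seeing the data, and 0 with the 3' minus 5' covariate, where limma gave 684, 989 and 1398 at an unadjusted p under 0.05 for the other comparisons against 821 here. OE1 against OE2 (6) became 10 with quantile normalization, 89, 532, 212 and 0 with only the compared groups, array weights, the array median and the 3' minus 5' covariate. OE1 against fls1-3 (126) became 48 with median centring, 245 with the filter, 29 with only the compared groups, 20 without the trend, 3783 with array weights (2136 higher, 1647 lower), 497 with the array median and 0 with the 3' minus 5' covariate. OE2 against fls1-3 (5) became 1, 3, 117, 8 and 0 with only the compared groups, no trend, array weights, the array median and the 3' minus 5' covariate. Leaving out 1 array gave 9 to 385 calls for the main comparison, 4 to 19 for OE1 against OE2, 17 to 578 for OE1 against fls1-3 and 3 to 11 for OE2 against fls1-3. Main counts without Col-0 replicates 1 to 3 were 385, 67 and 165, without OE1 19, 31 and 9, without OE2 15, 28 and 29, and without fls1-3 75, 37 and 74. The cause was not tested. The first pair of ubiquitin probe sets alone gave 0.48 (exact permutation adjusted p = 0.0952).

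The replicate block gave 99 calls (29 higher, 70 lower) for the main comparison, 13 for OE1 against OE2 and 3 for OE2 against fls1-3. Arrays with the same number in different groups correlated at -0.27 to 0.25 in their deviations, and those with different numbers at -0.23 to 0.28. No pairing by number showed in these correlations. Whether same-numbered samples share a harvest or batch is not given in the labels.

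DFR turned to -0.53 with the array median as covariate and to -0.56, -0.69 and -0.09 without OE1 replicates 1 and 3 and fls1-3 replicate 3, with 2.03 the highest value without an array. AT1G75230 (0.28 in the main comparison) turned to -0.25 with the 3' minus 5' covariate, and AT1G61890 (-0.20) to 0.05 without OE1 replicate 1, the highest of a range that began at -0.42. With the 3' minus 5' covariate, 80 of the 81 calls kept their sign and 34 had an unadjusted p under 0.05, with a median standard error of 0.48 against 0.17. Promoter motifs were not searched, since no promoter sequences were used here.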
